A study of Mus musculus with 6 samples.

Results

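Expression of 9 genes for solute carriers of the leptomeninges was followed: Slc13a4, Slc13a3, Slc22a6, Slc22a8, Slc22a2, Slc6a13, Slc6a12, Slc6a20a and Slc47a1. They were taken by name from the 56748 genes of a count table, as carriers of organic anions, organic cations, sulfate and GABA at the arachnoid and pial barrier, and all 9 were found. They were chosen with their own difference between the groups known, so that difference is described here and carries no test.

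The 6 libraries were RNA-seq of cortex labelled as infarct at day 3 after photothrombotic stroke in male wild-type C57 mice. Of these, 3 came from mice given PLEA nanoparticles and 3 from mice given saline. In both groups a light-activated clot was made in the left hemisphere (an intravenous agent at 100 mg/kg, then a laser of 532 nm and 250 mW, 1.5 mm wide, for 5 minutes), and 100 µL of PLEA or saline entered the tail vein 2 hours later. The labels give neither the meaning of PLEA, nor the agent, nor the age of the mice, and no unlesioned tissue was analysed here. The labels name the tissue as brain, and nothing in them says how much infarct, or whether the meninges, stayed on the pieces that were taken.

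The leptomeninges are the thin pia on the brain surface and the arachnoid above it, with cerebrospinal fluid between them. Arachnoid barrier cells and the fibroblasts around them carry many of the transporters best known from kidney tubules, which take organic acids, cations, sulfate and amino acids up from the fluid or pass them out of it. Organic anion transporters of the SLC22 family trade a dicarboxylate from inside the cell for an anion from outside, and SLC13 carriers bring dicarboxylates or sulfate in with sodium. SLC6 carriers use sodium and chloride to take up GABA, betaine or amino acids, and the MATE carrier Slc47a1 exchanges organic cations for protons.

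All 9 transcripts had a lower fitted level in PLEA than in saline, and in 8 of the 9 every PLEA library lay below every saline library. Over the 17584 genes tested, the same was true of 51% for the sign and of 5.54% for the separation, and nothing is read from the members' counts because they were chosen on this contrast. The median log2 fold change (PLEA minus saline) over the 9 was -1.05, beside -0.01 over all tested genes, and with each library left out in turn it ranged from -1.26 to -0.91. All 9 passed the low-count filter of the fit. None of the 17584 tested genes passed edgeR's quasi-likelihood test at an adjusted p of 0.05 (Benjamini-Hochberg). At an unadjusted p under 0.05 in that test, 630 were lower (3.58% of those tested) and 401 higher (2.28%) in PLEA. DESeq2 called 37 lower (0.21%) and 4 higher (0.0227%). Each library held between 16810448 and 17516434 counts, and counting error at the members' mean PLEA counts ran from 6.64% to 30.6%. Fewer cells of a type and less RNA per cell cannot be told apart in bulk tissue.

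Some libraries stood apart in genes other than the members. Saline 2 had 528 counts of the serotonin transporter gene Slc6a4, against 0, 3 and 1 in PLEA 1 to 3 and 0 and 4 in saline 1 and 3. It also had 174 counts of the glycine transporter gene Slc6a5, and no other library had more than 2. PLEA 3 had 5020 counts of Ttr, the transthyretin made by choroid plexus epithelium, against 3 and 98 in PLEA 1 and 2 and 1, 27 and 8 in saline 1 to 3. Without saline 2 the median over the 9 transporters was -1.04, without PLEA 3 it was -1.01 (both log2), and without saline 1, which was highest in microglial markers, it was -0.97.

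**Figure D1:**
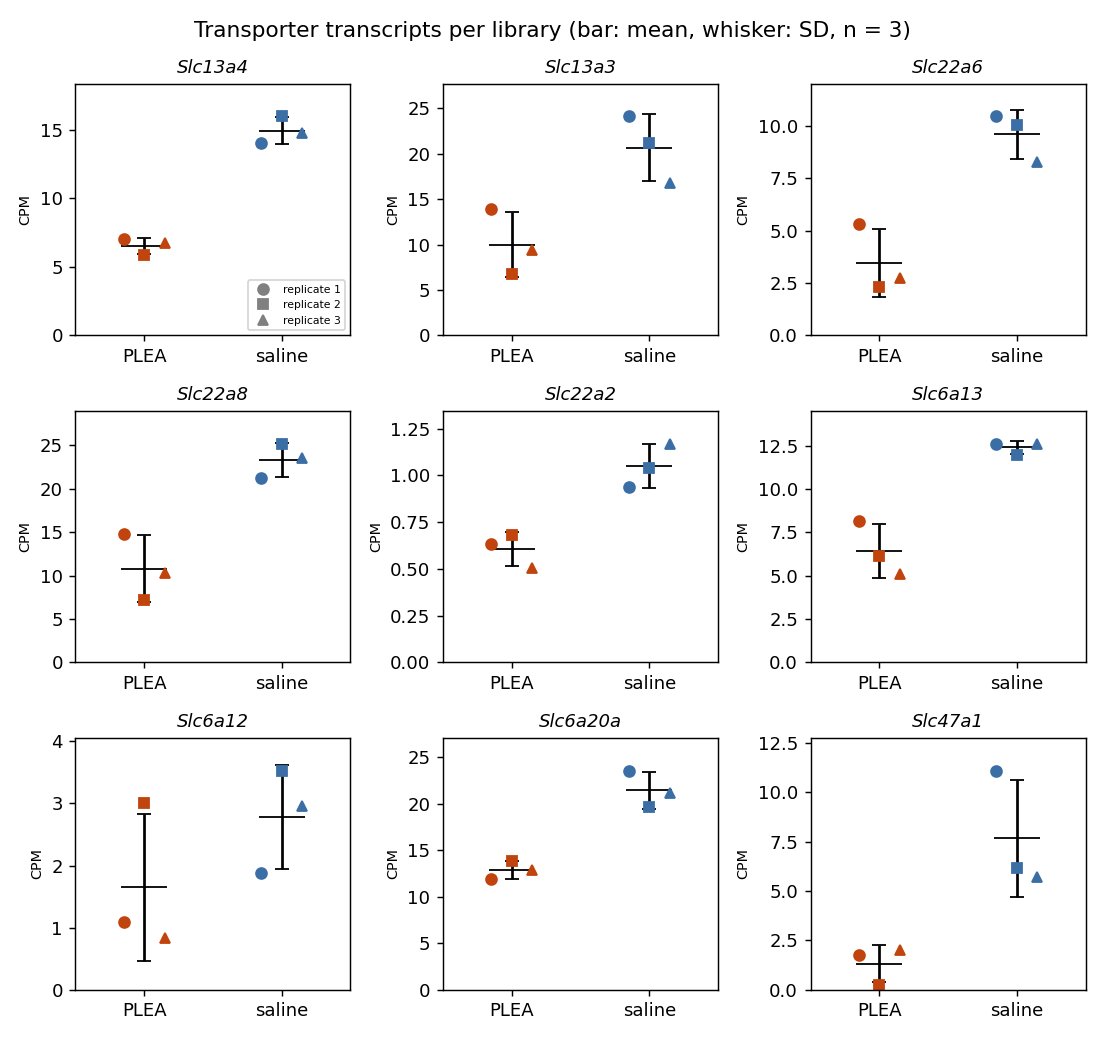
Level of each transporter transcript in CPM (counts scaled to library size, vertical axis from 0) in the 3 PLEA libraries (left) and the 3 saline libraries (right), with symbols for replicates 1 to 3, the group mean as a bar and the SD as a whisker. The groups lie apart in 8 panels and overlap in that of Slc6a12, where PLEA 2 stood at 3.00 CPM.

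Upstream sequence is shown because the 9 transcripts were chosen with their shared lower level known, and a shared word near their starts is a simple thing to look up. RefSeq promoters of GRCm38.p6 (250 bases before to 50 after each start) matched 8 of the 9 genes by symbol. The word GGAATG (which reads CATTCC on the other strand), the core of the sites that TEAD factors bind, stood in 5 of the 8 windows (Slc13a4, Slc22a2, Slc22a6, Slc22a8 and Slc6a13) and in 14.7% of 32851 promoters. The word GTTAAT, searched on both strands like all words here and one arm of the site of HNF1 factors, which regulate organic anion carrier genes in kidney, stood in 3 (Slc22a6, Slc22a8 and Slc6a20a) and in 7.1% of all. This word was added to the search after the windows had been read. The 150 bases before the start are given 5′ to 3′ for 4 genes with a GGAATG word there, which lie at chr6:35308127-35308276 (minus strand), chr19:8617846-8617995, chr19:8593032-8593181 and chr6:121300138-121300287 (plus strand). Capitals mark GGAATG or CATTCC and GTTAAT.
Slc13a4: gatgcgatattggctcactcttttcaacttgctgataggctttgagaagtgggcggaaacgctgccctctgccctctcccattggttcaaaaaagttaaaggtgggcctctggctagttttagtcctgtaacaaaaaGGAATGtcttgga
Slc22a6: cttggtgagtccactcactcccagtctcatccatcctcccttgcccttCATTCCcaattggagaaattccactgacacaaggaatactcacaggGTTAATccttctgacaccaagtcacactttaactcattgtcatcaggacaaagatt
Slc22a8: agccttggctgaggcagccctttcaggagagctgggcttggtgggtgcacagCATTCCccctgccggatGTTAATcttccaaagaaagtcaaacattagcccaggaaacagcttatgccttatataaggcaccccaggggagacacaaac
Slc6a13: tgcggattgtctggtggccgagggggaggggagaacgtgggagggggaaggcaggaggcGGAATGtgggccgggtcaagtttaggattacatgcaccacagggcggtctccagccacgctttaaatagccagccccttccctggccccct
The GGAATG word began at -13 in Slc13a4 and -91 in Slc6a13, and its complement at -102 in Slc22a6 and -98 in Slc22a8, counted from the base before the start as -1. In the neighbours Slc22a6 and Slc22a8, GTTAAT followed at -56 and -81. The annotated start of Slc22a8 used here lies 1928 bases from the 5′ end of the gene model in GENCODE M21, so its window may not be the promoter in use. A further 6 words were searched on both strands. GGGCGG, bound by SP and KLF factors, stood in 4 of the 8 windows and 35.7% of all. TAAATA, a form bound by FOXC factors, stood in 2 (Slc22a2 at -31 and Slc6a13 at -29) and 13.7%. The E-box CAGCTG, its own complement, stood in 2 and 16.3%. None of the 8 held the forkhead word TGTTTAC (3.65% of all), the nuclear receptor word AGGTCA (16.3%) or the core promoter word TATAAA (13.6%). Only exact words were counted, so a near form such as tatataag in the printed Slc22a8 stretch was not. No word overlapped another of the search in the printed stretches. A match is a description of these letters and not a bound site. The genes and 1 word were chosen with results known, and Slc22a6 and Slc22a8 are neighbours, so no enrichment is read from the counts.

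Levels are compared between genes only per length, as TPM, computed from the counts and the gene length in the table and scaled to the same total in every library. In PLEA the order of mean TPM was Slc6a20a (13.2 ± 1.08, SD, n = 3), Slc22a8 (11.6 ± 4.04), Slc6a13 (9.30 ± 2.08), Slc13a3 (8.04 ± 2.83), Slc13a4 (6.04 ± 0.600), Slc22a6 (3.63 ± 1.65), Slc6a12 (2.25 ± 1.59), Slc47a1 (1.65 ± 1.21) and Slc22a2 (1.02 ± 0.135). In saline it was Slc22a8 (23.6 ± 2.99, SD, n = 3), Slc6a20a (20.6 ± 1.16), Slc6a13 (16.8 ± 0.262), Slc13a3 (15.6 ± 2.77), Slc13a4 (13.01 ± 1.44), Slc22a6 (9.49 ± 1.30), Slc47a1 (8.87 ± 3.18), Slc6a12 (3.63 ± 1.23) and Slc22a2 (1.67 ± 0.200). The leading 6 were the same genes in both groups, with Slc22a8 and Slc6a20a in exchanged places. In PLEA no gene's 3 values lay clear of those of the next gene down. In saline 4 steps were clear of overlap, namely Slc6a20a over Slc6a13, Slc13a4 over Slc22a6, Slc47a1 over Slc6a12, and Slc6a12 over Slc22a2. Per length these are middling to low transcripts in this tissue: 51.3% of tested genes had a lower mean TPM than Slc22a8, the highest, and 6.1% a lower one than Slc22a2.

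**Figure D2:**
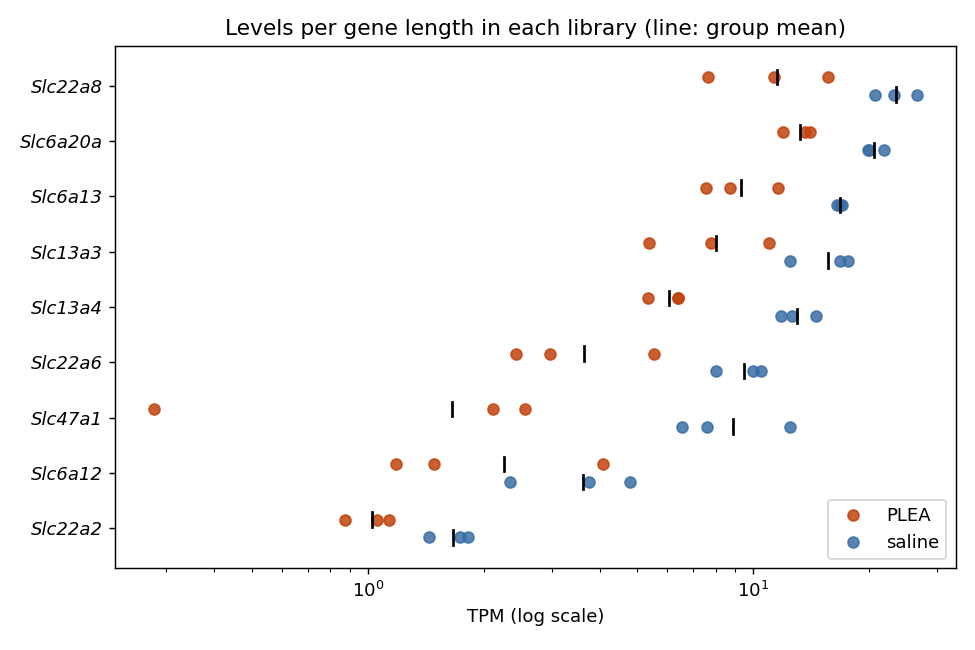
Level per gene length of each transporter (TPM, log axis) in each library, with the PLEA libraries above the saline libraries in each row and the group mean as a line. Genes are ordered by mean TPM over all libraries, from Slc22a8 at the top to Slc22a2 at the bottom.

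Slc13a4 encodes a sodium-dependent sulfate carrier (table coordinates chromosome 6, 35244892 to 35285066, minus strand). The gene coordinates given here and for the other members differ from GRCm38, so they cannot be set against the promoter positions above. Slc13a4 had 6.99, 5.84 and 6.71 CPM in PLEA 1 to 3, against 14.0, 15.95 and 14.8 CPM in saline 1 to 3. The groups lay far apart beside their own spread, with a mean of 6.51 ± 0.602 CPM in PLEA and 14.9 ± 0.974 CPM in saline (SD, n = 3 each). The log2 fold change was -1.19 (SE 0.17), with a range of -1.26 to -1.12 when each library was left out. That range was the narrowest of the 9.

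The rest of sulfate handling was given by 12 genes for sulfate carriers, activation and transfer. None passed edgeR's quasi-likelihood test at an adjusted p of 0.05, 8 had a log2 fold change below 0 and 4 above it, and the median was -0.04. In 3 of the 12 every PLEA library was below every saline library, as in 5.54% of all tested genes. Among these was Slc26a7, an anion exchanger of kidney and stomach epithelia, with 40, 10 and 37 counts in PLEA 1 to 3 against 115, 84 and 97 counts in saline 1 to 3. Its log2 fold change was -1.82 (SE 0.45, edgeR quasi-likelihood adjusted p = 0.818, DESeq2 adjusted p = 0.0395). The other two were Slc26a2, the widely expressed sulfate carrier best known from cartilage (log2 fold change -0.57, SE 0.20; -0.32 without saline 1), and Slc26a1, the sulfate carrier of liver and kidney (log2 fold change -0.62, SE 0.33), and for both the edgeR adjusted p was 0.818. Sult1a1, a sulfotransferase for phenols, had 69, 342 and 281 counts in PLEA against 128, 105 and 117 counts in saline, so the groups overlapped through PLEA 1.

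Slc13a3 encodes the carrier that brings dicarboxylates such as succinate and N-acetylaspartate into the cell (chromosome 2, 165246948 to 165315150, minus strand). It had 13.9, 6.74 and 9.39 CPM in PLEA 1 to 3, against 24.1, 21.2 and 16.8 CPM in saline 1 to 3. PLEA 1 was the highest of its group and still below saline 3, the lowest of the other. Its log2 fold change was -1.05 (SE 0.27), and it ranged from -1.37 without PLEA 1 to -0.83 without PLEA 2.

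Of 9 genes for N-acetylaspartate and dicarboxylate metabolism and transport, 8 were tested and none passed edgeR's adjusted test, with 4 below 0 and 4 above and a median log2 fold change of -0.06. Aspa, the enzyme that splits N-acetylaspartate in oligodendrocytes, was the 1 gene of them whose groups did not overlap. Every PLEA library was below every saline library, as in 5.54% of tested genes. Aspa had 261, 164 and 211 counts in PLEA against 322, 501 and 312 counts in saline. Its log2 fold change was -0.89 (SE 0.24, edgeR quasi-likelihood adjusted p = 0.818).

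Slc22a6 and Slc22a8 encode the organic anion transporters OAT1 and OAT3, which take up organic acids, drugs and transmitter metabolites, and lie 6203 bases apart on the same strand of chromosome 19 (8595403 to 8605663 and 8568618 to 8589199). Slc22a6 had 5.32, 2.32 and 2.74 CPM in PLEA 1 to 3, against 10.4, 10.1 and 8.25 CPM in saline 1 to 3. Slc22a8 had 14.9, 7.20 and 10.3 CPM in PLEA 1 to 3, against 21.3, 25.2 and 23.5 CPM in saline 1 to 3. For both genes the groups lay apart, PLEA 1 was the highest PLEA library and PLEA 2 the lowest. The log2 fold change was -1.47 (SE 0.33) for Slc22a6 and -1.11 (SE 0.25) for Slc22a8. Without PLEA 1 they were -1.93 and -1.42, and without PLEA 2 they were -1.25 and -0.89, and these were the ends of both ranges.

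Within each library Slc22a6 was at a fraction of the level of its neighbour. The TPM ratio of Slc22a6 to Slc22a8 was 0.351, 0.317 and 0.261 in PLEA 1 to 3, against 0.481, 0.392 and 0.344 in saline 1 to 3, with means of 0.310 ± 0.0454 in PLEA and 0.406 ± 0.0696 in saline (SD, n = 3 each). PLEA 1 was above saline 3, so the ratios overlapped. The printed stretches of this pair share both words in the same order, as given above. GTTAAT was added to the search after the windows had been read, so nothing about the pair's levels is read from the words.

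Slc22a2 encodes the organic cation transporter OCT2 (chromosome 17, 12803019 to 12847375, plus strand) and was the scarcest of the 9. It had 11, 12 and 9 counts in PLEA 1 to 3, against 16, 18 and 19 counts in saline 1 to 3. The groups did not overlap, but the gap between PLEA 2 and saline 1 was 4 counts, which is close to the counting error of either value. On the log2 scale the fold change was -0.78 (SE 0.36), and the gene was lost under a filter of 1 CPM in at least 3 libraries. Slc22a3, a neighbouring gene for a cation transporter, had 37, 81 and 67 counts in PLEA against 51, 42 and 108 counts in saline, and its groups overlapped.

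Slc47a1 encodes MATE1, which passes organic cations out of the cell (chromosome 11, 61234227 to 61269171, minus strand), and differed more than any other of the 9. It had 30, 4 and 36 counts in PLEA 1 to 3, against 189, 107 and 93 counts in saline 1 to 3. In CPM these were 1.73, 0.227 and 2.01 in PLEA, against 11.1, 6.18 and 5.72 in saline. The groups lay well apart, yet each held a library far from the others, PLEA 2 on the low side and saline 1 on the high side. Over all libraries the log2 fold change was -2.53 (SE 0.61), -2.03 without PLEA 2 and -2.15 without saline 1, and -2.96 without PLEA 3. Its near relative Slc47a2, next to it on the chromosome, had 0, 0 and 3 counts in PLEA and 2, 2 and 3 counts in saline.

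Slc6a13 encodes the transporter GAT2, which takes up GABA and taurine, and Slc6a12 encodes BGT1, which takes up betaine and GABA. The 2 genes lie 5342 bases apart on the plus strand of chromosome 6 (121277186 to 121314692 and 121320035 to 121342734). Slc6a13 had 8.15, 6.12 and 5.09 CPM in PLEA 1 to 3, against 12.6, 12.0 and 12.6 CPM in saline 1 to 3. The saline libraries were nearly level, with a coefficient of variation of 3.03%, and the PLEA libraries spread over 24.1% and all lay below them. The log2 fold change was -0.94 (SE 0.21), with a range of -1.16 to -0.80 when each library was left out.

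Slc6a12 was the 1 gene of the 9 whose groups overlapped. It had 19, 53 and 15 counts in PLEA 1 to 3, against 32, 61 and 48 counts in saline 1 to 3. PLEA 2 was above saline 1 and saline 3, and the other 2 PLEA libraries were below all saline libraries. The log2 fold change was -0.76 with an SE of 0.50. It was -1.52 without PLEA 2, -0.44 without PLEA 3, -0.54 without PLEA 1 and -0.55 without saline 2, so single libraries set its size. The TPM ratio of Slc6a12 to Slc6a13 was 0.128, 0.467 and 0.157 in PLEA 1 to 3, against 0.142, 0.280 and 0.223 in saline 1 to 3, and it was highest in the replicate 2 library of both groups.

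The neuronal and glial side of GABA handling was given by 7 genes for its synthesis, uptake and breakdown. None passed edgeR's adjusted test, 5 were below 0 and 2 above, and the median log2 fold change was -0.01. Slc6a11, the astrocyte transporter GAT3, had 107, 148 and 140 CPM in PLEA against 162, 457 and 152 CPM in saline. It was the 1 gene of the 7 with every PLEA library below every saline library, as in 5.54% of tested genes. Its log2 fold change was -0.97 (SE 0.40, edgeR quasi-likelihood adjusted p = 0.818), and -0.26 without saline 2. Of 10 genes for betaine, taurine and other osmolytes, 9 were tested, none passed, 7 were below 0 and 2 above, and the median log2 fold change was -0.03.

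Slc6a20a encodes a sodium-dependent carrier of proline and other imino acids (chromosome 9, 123463835 to 123507950, minus strand). It had 11.8, 13.8 and 12.9 CPM in PLEA 1 to 3, against 23.5, 19.6 and 21.1 CPM in saline 1 to 3. The groups were tight and apart, and the log2 fold change was -0.73 (SE 0.14), with a range of -0.80 to -0.65 when each library was left out. This was the smallest of the 9 differences and the one with the smallest SE. The assignment of its reads to this gene is less certain than for the other 8. Of its exonic bases, 13.8% (563 of 4084 in GENCODE M21) are shared with the antisense gene Gm17120. The strand setting of the counting is not given in the sources used here. In addition, 276 of its bases are 95.7% identical to Slc6a20b. Gm17120 had 2, 11 and 8 counts in PLEA against 18, 2 and 10 counts in saline, and Slc6a20b had 0, 7 and 3 counts in PLEA against 5, 10 and 3 counts in saline.

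**Figure D3:**
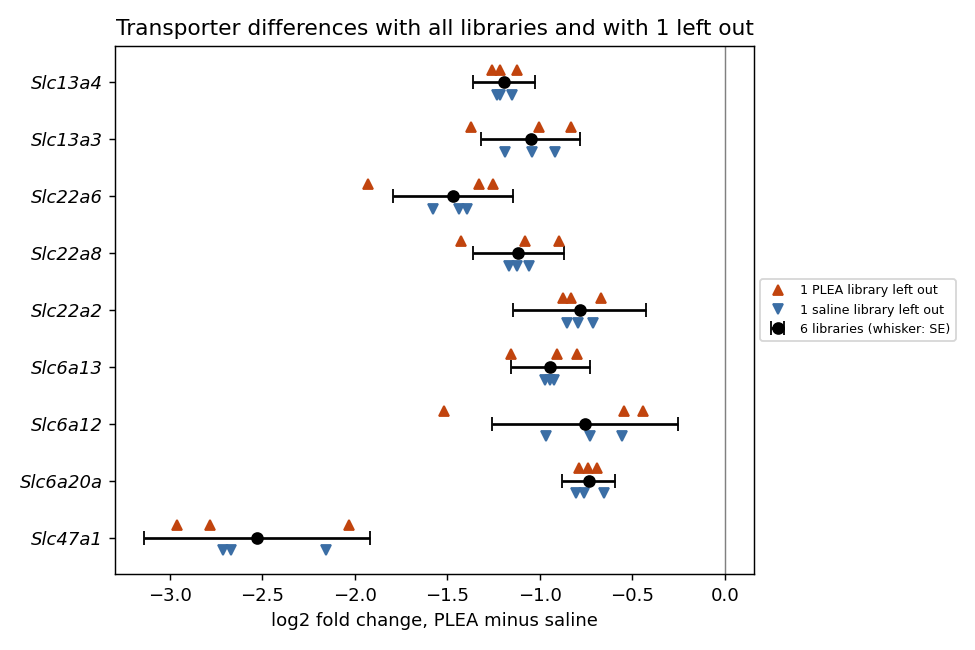
Log2 fold change of each transporter (PLEA minus saline) over all libraries, as a black point with its SE, with the values after leaving out each PLEA library (upward triangles) or each saline library (downward triangles). All values lie below 0; the points of Slc6a12 spread from -1.52 to -0.44 and those of Slc13a4 from -1.26 to -1.12.

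Among themselves the 9 transcripts did not keep 1 order over the libraries of a group. PLEA 1 was the highest PLEA library for 5 of them (Slc13a4, Slc13a3, Slc22a6, Slc22a8 and Slc6a13), as it was for 35.5% of tested genes. PLEA 2 was the lowest for 5 (Slc13a4, Slc13a3, Slc22a6, Slc22a8 and Slc47a1, against 34.2% of tested genes) and the highest for 3 (Slc22a2, Slc6a12 and Slc6a20a, against 36.2%). In saline the highest library was replicate 1 for 4 genes, replicate 2 for 3 and replicate 3 for 2. Slc13a4, Slc13a3, Slc22a6 and Slc22a8 thus had 1 order in PLEA, with replicate 1 above 3 above 2, while Slc6a12 and Slc6a20a had replicate 2 on top.

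Each gene's log2 CPM, centred on its mean over the 6 libraries, was set against the mean profile of the 9 (root mean square distance in log2 units). Slc13a4 lay nearest to it, at 0.109, followed by Slc22a8 at 0.173, Slc6a13 at 0.192, Slc13a3 at 0.204 and Slc22a6 at 0.266. Slc6a12, at 0.703, and Slc47a1, at 1.11, lay farthest. Among 13032 other protein-coding genes whose log2 CPM averaged 1 or more, and whose median distance was 0.651, the nearest were Fbln1 (0.130), a matrix protein, Serpind1 (0.135), a thrombin inhibitor, Bche (0.148), which is butyrylcholinesterase, Col5a2 (0.161), a collagen chain, and Plk5 (0.174), of the polo-like kinase family. Fbln1 had 150, 122 and 139 counts in PLEA against 258, 280 and 264 counts in saline, and Bche had 87, 88 and 87 counts in PLEA against 196, 207 and 178 counts in saline. These genes were selected by this likeness, so their own differences are no further evidence.

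**Figure D4:**
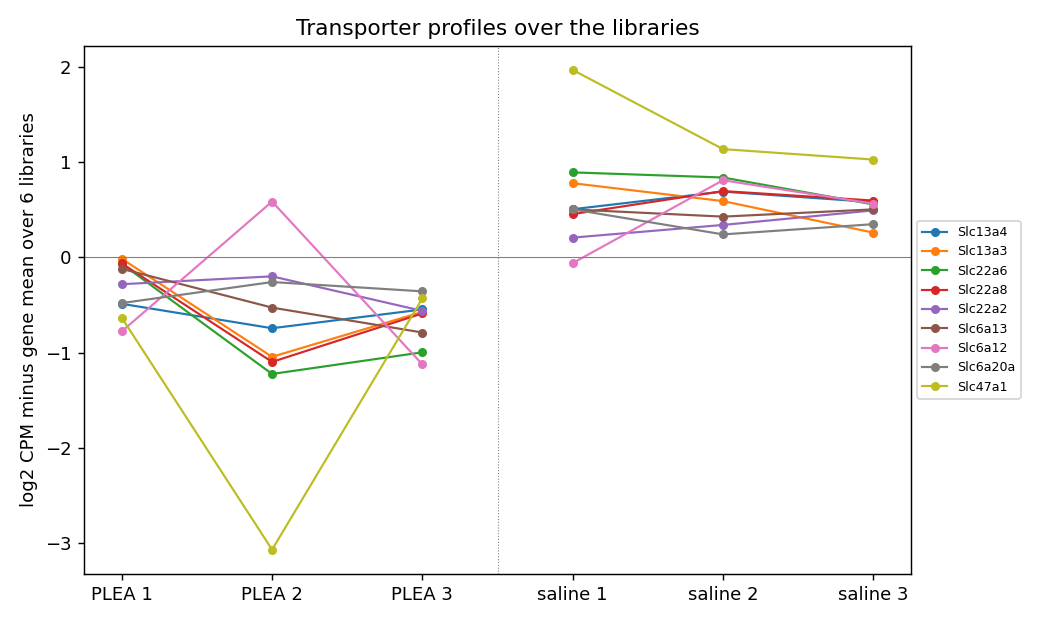
Centred log2 CPM of each transporter in the 3 PLEA libraries (left of the dotted line) and the 3 saline libraries (right), with 1 line per gene. Slc47a1 drops lowest in PLEA 2, where it had 4 counts, and Slc6a12 is the line above 0 in PLEA 2.

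The label was set against markers of the cells that could carry these transcripts. All 22 markers of pial and arachnoid fibroblasts passed the low-count filter. Aldh1a2, the retinoic acid enzyme of the meninges, had 6.13, 5.95 and 3.80 CPM in PLEA against 17.0, 14.2 and 14.6 CPM in saline. Foxc1, a factor of meningeal development, had 5.66, 6.29 and 5.37 CPM in PLEA against 13.3, 9.88 and 9.79 CPM in saline. Both transcripts were present in every library, and both were lower in each PLEA library than in any saline library. For arachnoid barrier cells, Cdh1 (E-cadherin) had 42, 10 and 19 counts in PLEA against 74, 71 and 39 counts in saline, and Dpp4, a surface peptidase, had 114, 63 and 54 counts in PLEA against 145, 100 and 92 counts in saline. Both overlapped between the groups, and the keratin genes Krt8 and Krt18 had at most 11 counts in any library and 0 in some libraries of each group.

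The marker lists differed between the groups to different extents, and their part in the transporter differences was not tested. Of the 22 fibroblast markers 20 were lower and 2 higher in PLEA, with a median log2 fold change of -1.02, beside -1.05 for the transporters. The 2 higher were Zic1 (log2 fold change 0.83) and Ngfr (0.38), and Pdgfra was nearly level (-0.04). In 15 of the 22 every PLEA library was below every saline library and in none above, where 5.54% and 5.16% of tested genes were. DESeq2 called 6 of them lower (0.21% of tested genes) and edgeR none. The fibroblast markers were also listed with earlier results of these data known, so no enrichment is read from these counts. Their summed CPM was 552 to 708 in PLEA and 829 to 989 in saline, of which Ptgds, prostaglandin D synthase, made up 60.0%, and without Ptgds it was 261 to 265 in PLEA and 311 to 385 in saline. The mean log2 CPM of the 9 transporters minus that of the 22 fibroblast markers was -0.568, -0.870 and -0.693 in PLEA 1 to 3, against -0.411, -0.237 and -0.452 in saline 1 to 3. Every PLEA library lay below every saline library. The means were -0.710 ± 0.152 in PLEA and -0.367 ± 0.114 in saline (SD, n = 3 each), a difference of -0.343. Slc47a1, with 4 counts in PLEA 2 and a log2 fold change of -2.53, enters that mean. Without Slc47a1 PLEA 1 would lie above saline 1, so the full separation depends on this gene. The transporters were chosen on this contrast, so an excess over another list can come from the choice alone. The difference carries no test, and the medians of -1.05 and -1.02 were close.

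Of the 5 arachnoid barrier markers 3 were tested, with a median log2 fold change of -0.60 (-1.03 without PLEA 1, -0.37 without saline 1, -0.39 without PLEA 3). Cldn11, which oligodendrocytes also express, was level at 195, 147 and 196 CPM in PLEA against 169, 208 and 157 CPM in saline (log2 fold change 0.01). The list without Cldn11 summed to 4.14 to 9.36 CPM in PLEA and 8.37 to 12.9 CPM in saline. Markers of choroid plexus epithelium, which also expresses several of these carriers, had a median on the other side of 0, with 5 of 9 tested genes higher in PLEA and a median log2 fold change of 0.76. Leaving out 1 library moved that median between 0.08 (without PLEA 3) and 1.36 (without PLEA 1). Their sum was 17.9, 55.0 and 370 CPM in PLEA 1 to 3 against 9.21, 47.4 and 33.4 CPM in saline 1 to 3. Microglia and border macrophage markers were lower in PLEA in 10 of 10 genes with a median of -0.68 (-0.22 without saline 1, -0.37 without PLEA 2, -1.12 without PLEA 1), and their sums overlapped at 145 to 397 CPM in PLEA and 262 to 739 CPM in saline. Medians for the other lists were -0.42 for 8 astrocyte markers (-0.23 without saline 1; 3430 to 4250 CPM summed in PLEA, 4205 to 5684 CPM in saline), -0.36 for 8 mural cell markers (-0.18 without saline 1) and -0.23 for 10 endothelial markers (0.02 without saline 1). They were 0.02 for 8 neuron markers, 0.76 for 6 ependymal markers (1.44 without saline 2, 0.42 without saline 3), 0.52 for 3 erythrocyte markers and -0.19 for 4 markers of bone, muscle and skin. Slc1a2 made up 60.8% of the astrocyte sum. Without Slc1a2 that sum was 1239 to 1488 CPM in PLEA and 1620 to 2359 CPM in saline, so the groups lay apart. In 3 of the 8 astrocyte markers every PLEA library was below every saline library and in 0 above, where 5.54% and 5.16% of tested genes were. None of the genes in these lists passed edgeR's adjusted test. DESeq2 called 1, the astrocyte potassium channel Kcnj10 (log2 fold change -1.01). Over all tested genes it called 0.21% lower and 0.0227% higher.

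**Figure D5:**
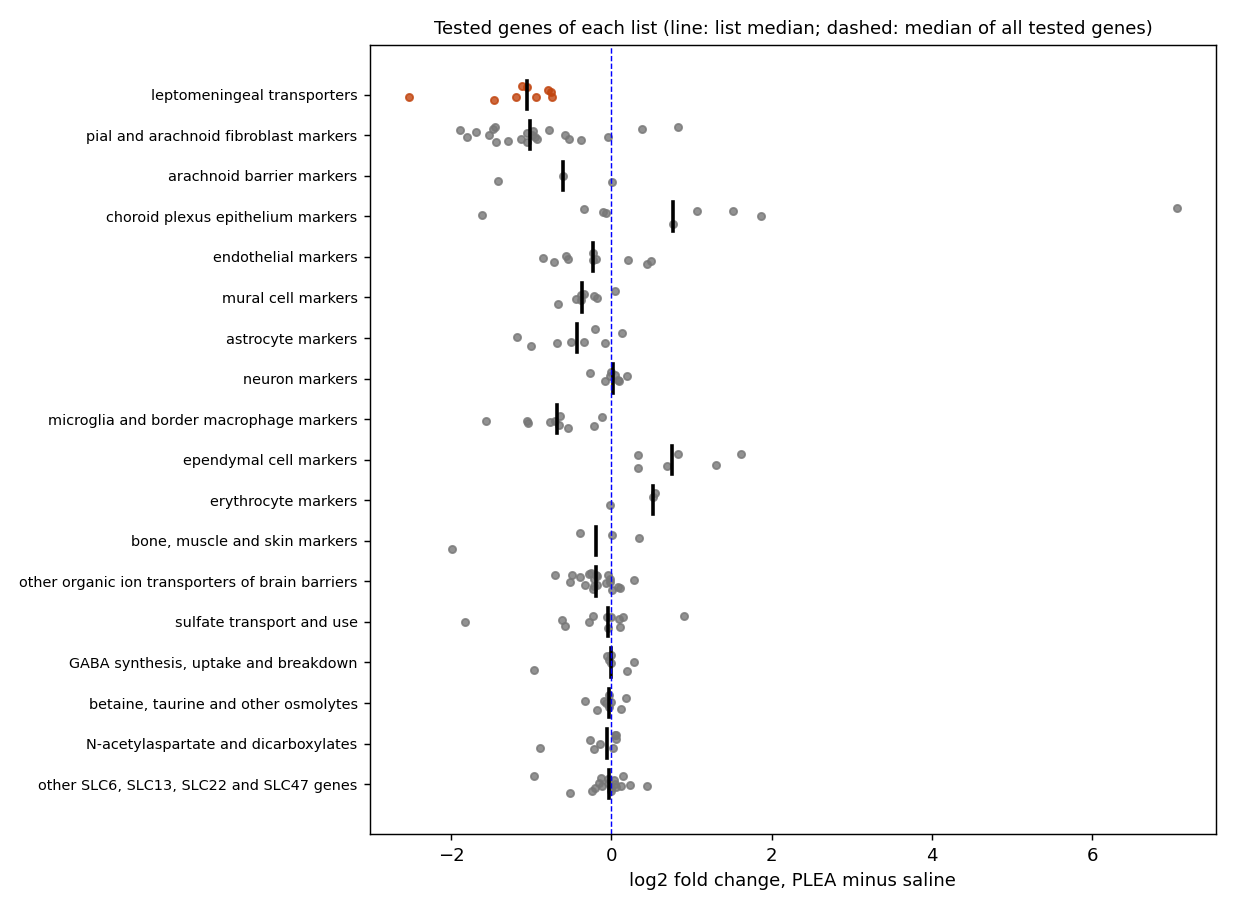
Log2 fold change (PLEA minus saline) of every tested gene in the transporter set and in each marker or pathway list, with the list median as a line and the median of all tested genes dashed. The transporters (median -1.05) and the fibroblast markers (median -1.02) lie farthest to the left; Ttr is the point farthest to the right among choroid plexus markers.

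The transporters' relatives and the other carriers of brain barriers were counted for comparison. Of 45 other protein-coding genes of the SLC6, SLC13, SLC22 and SLC47 families, 18 had enough counts to test and 5 had none in any library. Of the 18, 11 were below 0 and 7 above, and the median log2 fold change was -0.02. In every PLEA library 1 was lower and 1 higher than in every saline library, where 5.54% and 5.16% of tested genes were. None of the 18 passed edgeR's adjusted test or DESeq2. Of 23 other organic ion and drug transporters of brain barriers, 21 were tested, with 17 below 0 and 4 above. Their median was -0.19 (-0.07 without saline 1, -0.12 without PLEA 2). In 1 of the 21 every PLEA library was below every saline library and in 0 above, near the 5.54% and 5.16% of all tested genes. Among them the organic anion carrier Slco2b1 had a log2 fold change of -0.70 (-0.18 without saline 1), the peptide carrier Slc15a2 -0.33 and the vitamin C carrier Slc23a2 -0.22, and none of the 21 passed. Fam180a, the gene 4536 bases from Slc13a4, had 30, 2 and 10 counts in PLEA against 36, 36 and 39 counts in saline (log2 fold change -1.45, SE 0.69; -2.69 without PLEA 1 and -0.94 without PLEA 2; edgeR quasi-likelihood adjusted p = 0.818).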

How the data were processed

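The authors deposited raw read counts for 56748 genes in 6 libraries, with gene length in bases, per the file headers. Neither the aligner nor the counting tool and its strand setting is given in the sources used here. GRCm38 and mm10 are named in the submitters' processing notes, but the table's coordinates of all 9 members differed from GENCODE M21 (GRCm38) while their exonic lengths were equal, so table coordinates carry no build. Titles gave the groups; the labels do not say that replicates are separate animals, so any p-value covers only the variation among these libraries, perhaps technical. The fit used edgeR 4.0.16 (R 4.3.3) with filterByExpr, TMM factors and a quasi-likelihood F test on group alone, adjusted by Benjamini-Hochberg over 17584 genes at a threshold of 0.05. The SE is the log2 fold change over the square root of F. CPM is the count over the TMM-scaled total of tested genes; log2 CPM has a prior count of 2.

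Members and the 16 other lists were chosen with earlier results of these data known. Named genes are the members, up to 4 genes of smallest p per list, the 5 nearest profiles, neighbours of members and markers. Slc15a2, Slc23a2, Zic1, Ngfr, Pdgfra and the libraries that stood apart were named after their values were seen. Copies were sought with BLASTN 2.17.0 (identity of at least 95% over 100 bases). Alternatives were DESeq2 1.42.0, limma voom 3.58.1, RLE factors, other filters, a replicate block and leaving out each library. The procedure was also run on simulated data, and the outcome is not given here.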

Additional observations from a re-analysis of the deposited data

How the results depend on the processing

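The median log2 fold change of the 9 transporters was -1.06 with DESeq2, -1.10 with limma voom, -1.05 with RLE factors, -1.06 with no filter and -1.08 with 1 CPM in at least 3 libraries (8 genes). With a replicate block it was -1.09 and 0 of the tested genes were called in either direction. Deviations of same-numbered libraries had correlations of 0.373, 0.173 and -0.0176, and those of unlike-numbered libraries ran from -0.358 to 0.23. The numbers come from titles only and were not taken to pair the libraries. Leaving out 1 library gave -1.26 to -0.91 for the transporters, -1.28 to -0.93 for fibroblast markers, -0.47 to -0.18 for mural markers, 0.0363 to 1.24 for erythrocyte markers and -0.46 to 0.30 for bone, muscle and skin markers, and called 0 to 1 genes lower (1 without saline 1) and 0 to 0 higher. DESeq2 called 37 genes lower and 4 higher, and edgeR with no filter 31 lower and 7 higher. With no filter the arachnoid barrier median was -0.003 over 5 genes, against -0.60 over the 3 that passed the filter. The stricter filter left 2 genes for bone, muscle and skin (median -0.83) and none for erythrocytes. The cause of these shifts was not tested beyond the gene counts given. No value changed sign where the main value exceeded its replicate spread. With 3 libraries a group, precision was limited most for Slc22a2, Slc6a12 and Slc47a1, which had means of 10.7, 29.0 and 23.3 counts in PLEA.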
